A study of Mus musculus with 13 samples.

Results

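The SLC25 family of mitochondrial carriers was examined in aortic RNA as the 47 protein-coding genes of the count table whose symbol is Slc25a followed by a number, out of 54532 genes listed and 22046 that are protein-coding. The family was chosen by the level of 1 of its genes: Slc25a22 was lower in the aortas labelled Ad-FAM3A, so the values of the members between the virus groups are a description. Counts from the fit across all genes are printed beside their share of all genes, and nothing about the members is read from them. Aortas came from 13 ApoE-/- mice that all received angiotensin II (AngII) from a subcutaneous osmotic pump, for up to 28 days from an age of 10 weeks, as males or females whose sex per library was not used here. The 6 Ad-sham mice were injected with the empty vector adenovirus, and the 7 Ad-FAM3A mice with the same vector carrying mouse Fam3a behind an EF1A promoter, in 5 tail vein injections. Each library is from 1 mouse aorta, and the sources name aortic or aneurysm tissue without stating whether the whole aorta was used. No group was without AngII or with intact ApoE, and the promoter is not restricted to a cell type. In bulk tissue, fewer cells of a type and less RNA per cell cannot be told apart.

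Carriers of this family sit in the inner mitochondrial membrane, with few exceptions such as the peroxisomal Slc25a17 and the outer membrane Slc25a46. Each member exchanges or imports a particular class of solutes, such as ADP for ATP, phosphate, citrate, glutamate, carnitine esters or glutathione, and so links the matrix to the cytosol. Most are encoded in the nucleus without a cleaved presequence and reach the inner membrane by the TIM22 route. In adipose tissue, citrate export feeds lipid synthesis and carnitine import feeds fatty acid oxidation, while in muscle the ADP/ATP carriers supply the contractile apparatus.

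The promoters of Slc25a22, of Slc25a20 and of Slc25a1 are shown because the first gave the family its place here, the second is set against adipocyte markers below, and the third was the most abundant member with the largest difference between the groups. RefSeq sequences of the mouse build GRCm38.p6 were found for 36 of the 47 members, as windows of 250 bases before the most upstream RefSeq start. Printed, 5′ to 3′, is the part that lies before the gene in the deposited table, with GC boxes (GGGCGG) and CCAAT boxes in capitals on either strand. For Slc25a22 this is chr7:141437893-141438124 (minus strand), 232 bases with 48.7% GC, and RefSeq lists more downstream starts for this gene as well. For Slc25a20 it is chr9:108661886-108662087 (plus strand), 202 bases with 54.0% GC. For Slc25a1 it is chr16:17928220-17928469 (minus strand), 250 bases with 70.0% GC.
Slc25a22: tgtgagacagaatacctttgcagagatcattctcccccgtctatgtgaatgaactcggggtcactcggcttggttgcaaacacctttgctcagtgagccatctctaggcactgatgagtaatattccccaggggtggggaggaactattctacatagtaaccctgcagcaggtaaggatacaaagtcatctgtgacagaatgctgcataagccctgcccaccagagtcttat
Slc25a20: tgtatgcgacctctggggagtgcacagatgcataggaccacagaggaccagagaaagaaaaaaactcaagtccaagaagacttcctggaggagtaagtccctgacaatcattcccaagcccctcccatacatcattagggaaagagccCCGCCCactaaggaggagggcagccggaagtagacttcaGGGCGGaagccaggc
Slc25a1: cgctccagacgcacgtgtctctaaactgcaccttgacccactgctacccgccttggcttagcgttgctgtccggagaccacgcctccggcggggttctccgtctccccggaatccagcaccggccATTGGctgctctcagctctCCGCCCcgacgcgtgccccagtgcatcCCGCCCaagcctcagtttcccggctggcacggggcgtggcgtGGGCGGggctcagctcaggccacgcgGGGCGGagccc
The Slc25a1 stretch held 4 GC boxes and 1 CCAAT box and that of Slc25a20 held 2 GC boxes, while the Slc25a22 stretch held neither motif. The whole Slc25a22 window, which runs on into the gene, held 1 GC box. In the whole windows, a GC box was present in 24 of the 36 member promoters (66.7%) against 32.7% of all 32817 promoter windows of this length, and CCAAT in 16 (44.4%) against 33.8%. Members have 1 window each, while all windows were taken with no limit on gene type or on starts per gene. The 2 sets are therefore unlike, and the shares here and below are not a test. GCGCATGCG, a core of the NRF-1 motif, was in 0 of 36 against 1.44% of all windows, TNAAGGTCA, an estrogen-related receptor element, was in 0 of 36 against 1.14%, and TCACNCCAC, a sterol regulatory element, was in Slc25a18 (2.78% against 1.05%). The NRF-1 result depends on the letters: with any base at its centre (GCGCNTGCG, which includes the former), the motif was in Slc25a3 and Slc25a31 (5.56% against 5.19%), and both forms were chosen after a longer one had been searched. All motifs were searched on both strands, and a match describes letters only.

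Total counts on genes ranged from 14481179 to 19797407 per aorta, and 3 counts, the limit that a count of 0 allows, were worth 0.140 to 0.221 CPM after TMM scaling for depth and composition, counting error only. Fam3a itself was not higher in the Ad-FAM3A aortas: it lay between 17.9 and 30.3 CPM in Ad-sham and between 18.5 and 29.8 CPM in Ad-FAM3A. Directions below therefore refer to the labels. Smooth muscle, endothelial and fibroblast markers were present in every aorta, and adipocyte markers were too. The sums of 6 white adipocyte markers ran from 1475 to 3836 CPM in Ad-sham and from 898 to 2393 CPM in Ad-FAM3A. The sums of 6 brown adipocyte markers, Ucp1 among them, ran from 677 to 4012 CPM and from 705 to 3054 CPM. No marker of either list was at 0, and all 12 had a log2 fold change below 0. Ad-sham1, Ad-sham2 and Ad-sham3 held the 3 highest white adipocyte sums, and these aortas together with Ad-FAM3A2 held the 4 highest brown adipocyte sums. Cardiac markers were highest in Ad-sham1 at 283 CPM, Ad-FAM3A6 at 187 CPM and Ad-sham3 at 76.1 CPM, against 7.13 to 33.6 CPM elsewhere. B cell markers summed to 9201 CPM for Ad-FAM3A6 and to 2829 CPM for Ad-FAM3A7, and to 25.5 to 132 CPM elsewhere. Sympathetic neuron marker sums ran from 13.9 to 1124 CPM in Ad-sham and from 33.1 to 1274 CPM in Ad-FAM3A. Kidney marker sums ran from 0.485 to 581 CPM and from 0.690 to 304 CPM in the same order.

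The family was led by the citrate, ADP/ATP and phosphate carriers. Levels of different genes are compared as RPKM (CPM divided by the gene length in kilobases), as means ± SD over 13 aortas. Slc25a1, which exports citrate, stood at 170 ± 111 RPKM, and the ADP/ATP carriers Slc25a5 and Slc25a4 stood at 145 ± 48.9 and 102 ± 35.2 RPKM. The phosphate carrier Slc25a3 followed at 74.4 ± 10.3 RPKM, then Slc25a39, which imports glutathione, at 63.4 ± 19.5 RPKM, and Slc25a51, which imports NAD, at 43.3 ± 10.8 RPKM. These 6 genes made up 63.3% ± 3.3 (SD, n = 13) of the summed RPKM of the family. The spread of Slc25a1, from 74.0 to 459 RPKM, covered the whole range of Slc25a5 and most of that of Slc25a4, so the place of Slc25a1 in the order is not separated from these beyond the spread between aortas.

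**Figure D1:**
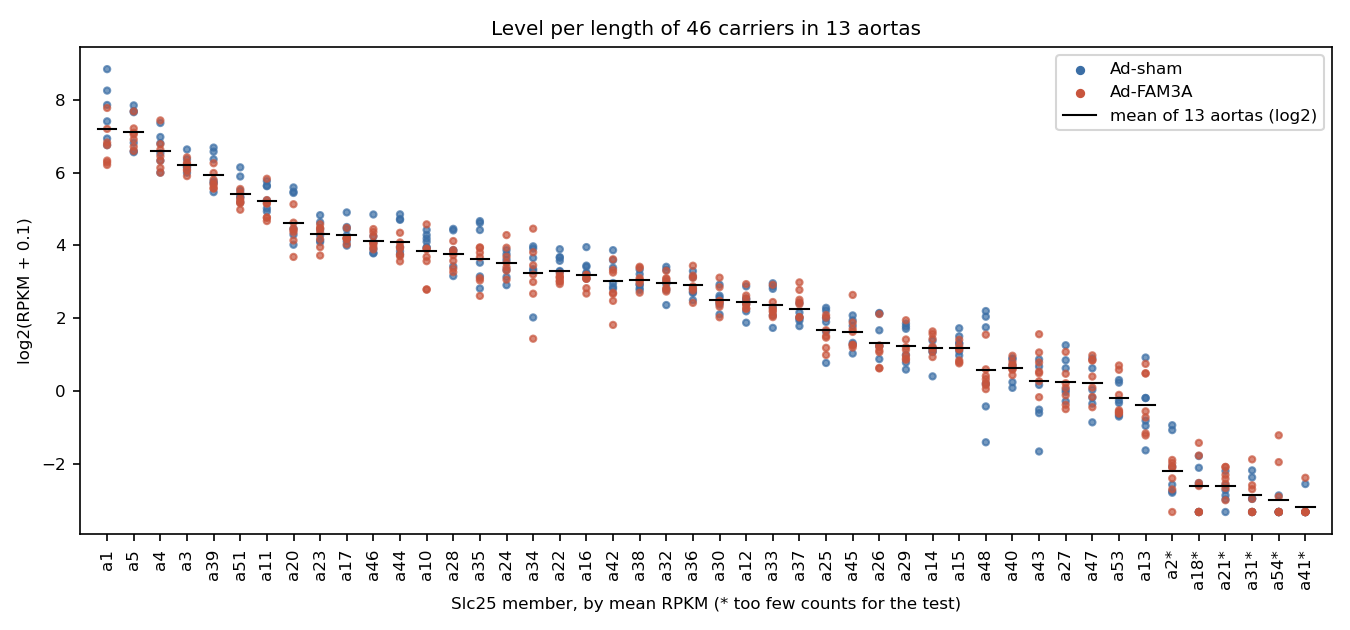
Level per length of 46 of the members as log2(RPKM + 0.1), each point 1 aorta (blue Ad-sham, red Ad-FAM3A) and each bar the mean of the 13 log2 values. Levels descend from Slc25a1 (170 RPKM) and Slc25a5 (145 RPKM) to Slc25a13 (0.80 RPKM), and the 6 starred members lie at or below 0.141 RPKM.

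By substrate, the ADP/ATP and phosphate carriers took 34.8% ± 3.75 (SD, n = 13) of the summed RPKM. The carriers of cofactors, carnitine and glutathione took 22.9% ± 1.53, and those of di- and tricarboxylates 22.9% ± 6.02. The nucleotide and ATP-Mg/phosphate carriers took 5.45% ± 1.32, and the amino acid carriers, the group of Slc25a22, took 5.18% ± 0.651. The mitoferrins held 2.10% ± 0.466, the uncoupling-protein-like members 1.06% ± 0.394, and members with other or unassigned substrates 5.61% ± 0.932. In percentage points the di- and tricarboxylate share varied most, from 14.3% to 35.6%, while the uncoupling-protein-like share varied more relative to its level, from 0.513% to 1.91%, and Slc25a1 alone took from 9.77% to 30.9%.

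Of the 47 members, 41 passed the filter on low counts and 6 did not. Those 6 were Slc25a2 and Slc25a18 with at most 9 counts in any aorta, Slc25a21 with at most 11, Slc25a31 with at most 6, Slc25a54 with at most 8 and Slc25a41 with at most 2. Slc25a31 is the ADP/ATP carrier of the male germ line and Slc25a18 the second glutamate carrier. These members were at or near the limit of detection at this depth.

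Carriers with like substrates were set against each other within each aorta, as the difference in log2(RPKM + 0.1) over 13 aortas. Each of the 8 pairs was tested by a two-sided exact sign-flip permutation test, with Benjamini-Hochberg adjustment over the 8 pairs. The glutamate carrier Slc25a22, at 9.99 ± 2.26 RPKM, exceeded Slc25a18, at 0.0821 ± 0.0901 RPKM, in 13 of 13 aortas, by 5.92 ± 0.73 (SD) on the log2 scale (permutation p adjusted = 0.000391). Slc25a18 had at most 9 counts in any aorta, so the size of this difference is set by the pseudocount (3.32 with 1 and 7.68 with 0.01) and is not read. With at least 675 counts of Slc25a22 in every aorta, the sign was clear before the test, and this p adds nothing to it. The aspartate/glutamate carrier Slc25a12, at 5.44 ± 1.08 RPKM, exceeded Slc25a13, at 0.80 ± 0.520 RPKM, in 13 of 13 aortas, by 2.81 ± 0.77 (permutation p adjusted = 0.000391), or by 1.87 with a pseudocount of 1.

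Among the nucleotide carriers, Slc25a5 exceeded Slc25a4, the form typical of heart and skeletal muscle, in 12 of 13 aortas, and the difference of Slc25a4 minus Slc25a5 was -0.51 ± 0.41 (permutation p adjusted = 0.000837). Slc25a23 exceeded Slc25a24, another calcium-dependent ATP-Mg/phosphate carrier, in 12 of 13 aortas by 0.79 ± 0.53 (permutation p adjusted = 0.000651). The pyrimidine nucleotide carrier Slc25a36 exceeded Slc25a33 in 10 of 13 aortas, with a difference of Slc25a33 minus Slc25a36 of -0.53 ± 0.56 (permutation p adjusted = 0.00879). This was the smallest margin relative to its spread. A base overlap of 14.9% with an antisense gene on the other strand adds uncertainty to Slc25a33, since no source used here states whether counting used the strand.

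The glutathione carrier Slc25a39 exceeded its paralog Slc25a40, at 1.48 ± 0.261 RPKM, by 5.29 ± 0.61 in 13 of 13 aortas (permutation p adjusted = 0.000391). Mitoferrin-2 (Slc25a28), at 14.0 ± 4.11 RPKM, exceeded the erythroid form Slc25a37, at 4.85 ± 1.31 RPKM, in 13 of 13 aortas, and Slc25a37 minus Slc25a28 was -1.5 ± 0.62 (permutation p adjusted = 0.000391). Slc25a30 exceeded Slc25a14, both uncoupling-protein-like, in 13 of 13 aortas, and Slc25a14 minus Slc25a30 was -1.33 ± 0.43 (permutation p adjusted = 0.000391).

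Slc25a22 (ENSMUSG00000019082) lies on chromosome 7 of GRCm38 from 141429744 to 141437892 on the minus strand, and its exons overlap no other annotated gene. Its protein carries glutamate with a proton across the inner membrane. In the Ad-sham aortas it was measured at 76.3, 75.2, 88.7, 57.5, 71.0 and 58.4 CPM, and in the Ad-FAM3A aortas at 55.6, 45.4, 47.6, 50.5, 52.5, 47.9 and 51.8 CPM, in replicate order. All 7 Ad-FAM3A aortas lay below all 6 Ad-sham aortas, with 55.6 and 57.5 CPM as the nearest values. The Ad-sham mean was 71.2 ± 11.8 CPM (SD, n = 6) and that of Ad-FAM3A 50.2 ± 3.47 CPM (SD, n = 7), which gives -0.50 (SE 0.12) as the log2 fold change. Without Ad-sham1, Ad-sham2 and Ad-sham3, the aortas with the highest white adipocyte sums, it was -0.29, and with the adipocyte marker sum as a covariate it was -0.40.

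**Figure D2:**
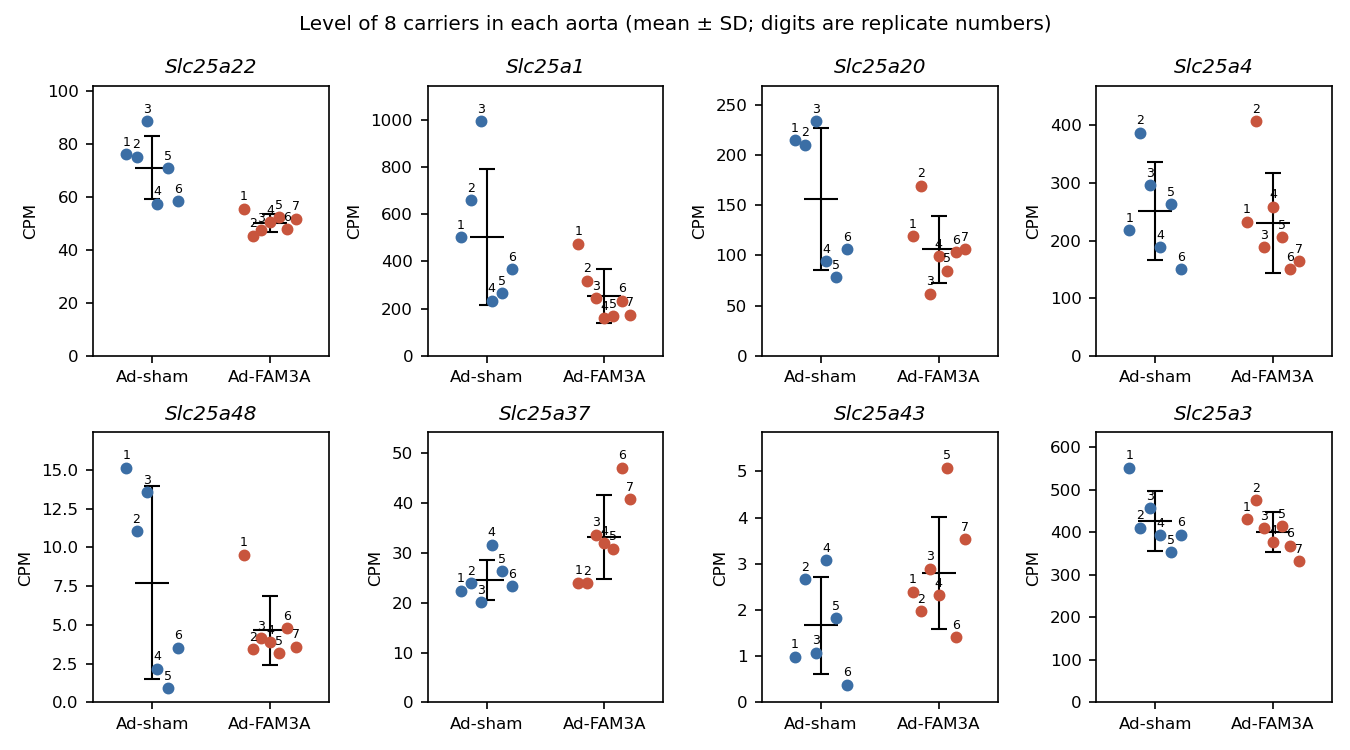
CPM of 8 members in each aorta, digits giving the replicate number and bars the mean ± SD (n = 6 Ad-sham, n = 7 Ad-FAM3A). The groups do not overlap for Slc25a22 (57.5 CPM and above against 55.6 CPM and below), and they overlap for the other 7 members.

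Slc25a22 was the only one of the 41 tested members whose groups did not overlap. Over all 15811 tested genes, 0.0569% had every Ad-FAM3A aorta below every Ad-sham aorta, and 0.0379% had every one above, where the family had 0. By the quasi-likelihood test of edgeR, with p adjusted by Benjamini-Hochberg across the whole table, 0 of 41 members passed the call (adjusted p under 0.05 and more than 1 on the log2 scale in either direction), and the share of all genes was 0%. The count was also 0 with DESeq2 and with limma-voom. At an unadjusted p under 0.05 there were 4 lower members, Slc25a22, Slc25a1, Slc25a16 and Slc25a44, beside 2.93% of all tested genes. There was 1 higher member, Slc25a37, beside 2.98%. In both directions together these were 5 members, beside 5.91% of all tested genes. With 1 aorta left out they became 3 without Ad-sham1 (6.22% of all genes in that fit), 2 without Ad-sham3 (3.07%), 9 without Ad-sham5 (5.69%) and 3 without each of Ad-FAM3A4, Ad-FAM3A5, Ad-FAM3A6 and Ad-FAM3A7 (4.70% to 5.44%), and they were 4 to 7 without each of the others (4.54% to 8.60%). In all, 27 members were lower and 14 higher in the Ad-FAM3A aortas, where 49.6% of all tested genes were lower, and the median log2 fold change was -0.19 for the members and 0.0032 for all tested genes. Since the rule used this contrast, nothing is read from these counts.

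Without the control aortas Ad-sham1, Ad-sham2 and Ad-sham3, 14 members were lower and 27 higher, beside 43.3% of all tested genes lower, and the median was 0.10 for the members and 0.049 for all tested genes. This set was picked after seeing the data and takes adipocyte-rich aortas from Ad-sham alone. Ad-FAM3A2, with a brown adipocyte sum of 3054 CPM, stayed in. For members that follow the adipocyte sums, a move upward was therefore largely set by the choice, wherever these 3 aortas are left out. With the adipocyte marker sum as a covariate, 20 were lower and 21 higher, beside 48.6% of all genes lower, with a median of 0.0017 for the members and 0.0083 for all tested genes. Of 23 members followed with each aorta left out in turn, 17 moved by more than 1.5 times or changed sign at least once, and Slc25a22, Slc25a1, Slc25a20, Slc25a35, Slc25a37 and Slc25a43 did not. A ratio flags values near 0 most easily, such as Slc25a30 at 0.040, so this rule favours members with large values. Set against its SD within the groups, no followed member moved by as much in any of the 13 fits. The summed CPM of the 47 members was 3903, 4057 and 4511 in Ad-sham1, Ad-sham2 and Ad-sham3, 2506 to 2681 in the other 3 Ad-sham aortas and 2424 to 3485 in the Ad-FAM3A aortas.

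The di- and tricarboxylate carriers had the lowest median, -0.44 over 3 tested members, all 3 lower. Slc25a1 ranged from 233 to 993 CPM in Ad-sham, with a median of 435, and from 160 to 475 CPM in Ad-FAM3A, with a median of 233. Its log2 fold change of -0.99 (SE 0.36) was the largest of the 41 members in size, but its groups overlapped, and it was -0.16 without Ad-sham1, Ad-sham2 and Ad-sham3. The highest values, 993 and 660 CPM, were those of Ad-sham3 and Ad-sham2. The dicarboxylate carrier Slc25a10 had a log2 fold change of -0.44 (SE 0.25) and the oxoglutarate/malate carrier Slc25a11 one of -0.27 (SE 0.21), of whose exon bases 8.92% overlap Rnf167 on the other strand.

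Of the 10 carriers of cofactors, carnitine and glutathione, 9 were lower and 1 higher, with a median of -0.36. Slc25a20, which imports acylcarnitines for fatty acid oxidation, lay between 78.1 and 233 CPM in Ad-sham, with a median of 158, and between 61.8 and 169 CPM in Ad-FAM3A, with a median of 103. Its values in Ad-sham1, Ad-sham2 and Ad-sham3 were 215, 210 and 233 CPM, while the other 3 Ad-sham aortas held 78.1 to 106 CPM, inside the Ad-FAM3A range. The log2 fold change was -0.56 (SE 0.29), and 0.23 without those 3 aortas. Slc25a26 for S-adenosylmethionine had -0.41 (SE 0.29) and Slc25a16, linked to coenzyme A, -0.39 (SE 0.15).

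Slc25a39 ranged from 121 to 284 CPM in Ad-sham (median 188) and from 130 to 211 CPM in Ad-FAM3A (median 144), with a log2 fold change of -0.36 (SE 0.21). Slc25a51 ranged from 200 to 390 CPM (median 237) and from 173 to 258 CPM (median 206), with a log2 fold change of -0.34 (SE 0.17). Without Ad-sham1, Ad-sham2 and Ad-sham3 these 2 values were 0.19 and 0.015. The remaining members of the group, Slc25a42, Slc25a17, Slc25a32 and Slc25a40, ran from -0.36 to 0.094. Slc25a40 lay between 8.08 and 14.8 CPM in Ad-sham (median 12.6) and between 10.5 and 15.6 CPM in Ad-FAM3A (median 12.7).

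Slc25a22 stood at one end of the amino acid carriers, of which 4 were lower and 3 higher, with a median of -0.13. Slc25a44, a carrier of branched-chain amino acids active in brown fat, had a log2 fold change of -0.46 (SE 0.21). It was at 92.8, 103 and 94.2 CPM in Ad-sham1, Ad-sham2 and Ad-sham3 and at 47.9, 51.0 and 55.2 CPM in the other Ad-sham aortas, which lay inside the Ad-FAM3A range of 41.9 to 72.5 CPM. Slc25a12 lay between 26.2 and 53.2 CPM in Ad-sham and between 34.4 and 55.5 CPM in Ad-FAM3A, a log2 fold change of 0.075 (SE 0.17). In each group it was highest in the aorta with the highest sympathetic neuron sum, Ad-sham5 and Ad-FAM3A3, a relation that was not tested. Slc25a13, in the citrin form typical of liver, varied 8.03-fold between aortas, from 0.848 to 6.81 CPM in Ad-sham and from 1.25 to 6.0 CPM in Ad-FAM3A. In each group it was highest in the aorta with the highest kidney sum, Ad-sham6 and Ad-FAM3A3, which was not tested either. The ornithine carrier Slc25a15, the basic amino acid carrier Slc25a29 and the glycine carrier Slc25a38 had log2 fold changes of -0.28, -0.13 and 0.10.

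The 3 tested ADP/ATP and phosphate carriers had log2 fold changes between -0.22 and -0.090, each smaller than its SE. Slc25a3 had the narrowest range of the 6 most abundant members, 1.66-fold over 13 aortas, from 354 to 552 CPM in Ad-sham (median 402) and from 332 to 475 CPM in Ad-FAM3A (median 410). Its log2 fold change was -0.090 (SE 0.14). Slc25a4 ranged from 150 to 387 CPM (median 240) and from 150 to 407 CPM (median 206), a log2 fold change of -0.13 (SE 0.26) and 0.040 without Ad-sham2. Slc25a5 ranged from 155 to 379 CPM (median 259) and from 159 to 338 CPM (median 218), a log2 fold change of -0.22 (SE 0.25), which was 0.45 without Ad-sham1, Ad-sham2 and Ad-sham3. Of the 5 tested ATP-Mg/phosphate and nucleotide carriers, 3 were lower and 2 higher, from -0.28 for Slc25a25 to 0.18 for Slc25a24. Slc25a24 lay between 25.4 and 49.8 CPM in Ad-sham (median 37.8) and between 28.3 and 66.5 CPM in Ad-FAM3A (median 39.1), and Slc25a23 between 89.8 and 150 CPM (median 108) and between 69.4 and 126 CPM (median 108). Slc25a36 lay between 53.1 and 93.3 CPM (median 64.2) and between 50.5 and 103 CPM (median 69.5), and Slc25a33 between 6.09 and 14.51 CPM (median 11.1) and between 7.53 and 14.1 CPM (median 8.58). The groups overlapped for all 4.

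The 2 mitoferrins, which import iron for heme and iron-sulfur clusters, had opposite signs. Slc25a37 lay between 20.1 and 31.6 CPM in Ad-sham (median 23.6) and between 23.9 and 47.1 CPM in Ad-FAM3A (median 32), a log2 fold change of 0.43 (SE 0.17). The 2 highest values, 47.1 and 40.7 CPM, were those of Ad-FAM3A6 and Ad-FAM3A7, which also held the B cell sums of 9201 and 2829 CPM. Without these 2 aortas the log2 fold change was 0.23. Slc25a28 lay between 13.4 and 33.1 CPM and between 14.4 and 26.2 CPM, a log2 fold change of -0.24 (SE 0.22).

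Among the uncoupling-protein-like members, Slc25a27 had a log2 fold change of -0.33 (SE 0.34), Slc25a30 of 0.040 (SE 0.18) and Slc25a14 of 0.24 (SE 0.21), the last 0.13 without Ad-sham6. Slc25a14 lay between 2.89 and 5.94 CPM in Ad-sham and between 4.28 and 7.13 CPM in Ad-FAM3A, and Slc25a30 between 19.2 and 34.2 CPM and between 18.2 and 39.2 CPM. Of the 8 tested members with other or unassigned substrates, 3 were lower and 5 higher. Slc25a48, a mitochondrial choline carrier, lay between 0.935 and 15.1 CPM in Ad-sham (median 7.28) and between 3.16 and 9.53 CPM in Ad-FAM3A (median 3.89), a log2 fold change of -0.73 (SE 0.54). It was 15.1, 11 and 13.6 CPM in Ad-sham1, Ad-sham2 and Ad-sham3 and at most 3.53 CPM in the other Ad-sham aortas, and without those 3 aortas the log2 fold change was 1.09. With the adipocyte marker sum as a covariate it was 0.54.

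Slc25a35 lay between 25.6 and 93.1 CPM in Ad-sham (median 60.3) and between 22.2 and 56.4 CPM in Ad-FAM3A (median 46.5), a log2 fold change of -0.53 (SE 0.33) and 0.37 without the same 3 aortas. Of its exon bases 31.3% overlap Rangrf on the other strand, which had a mean of 0.173 CPM. Slc25a43 lay between 0.386 and 3.08 CPM (median 1.45) and between 1.41 and 5.08 CPM (median 2.40), a log2 fold change of 0.74 (SE 0.44) from 472 counts in all. Slc25a47, best known from liver, lay between 1.35 and 5.27 CPM and between 1.9 and 5.59 CPM, a log2 fold change of 0.33 (SE 0.36), which was 0.18 without Ad-sham4 and 0.56 without Ad-sham2. Slc25a34, Slc25a45, Slc25a46 and Slc25a53 ran from -0.10 to 0.14. Slc25a34 was lowest in Ad-FAM3A6 at 6.97 CPM and in Ad-sham1 at 10.6 CPM, the 2 aortas with the lowest smooth muscle sums, 2165 and 2860 CPM.

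**Figure D3:**
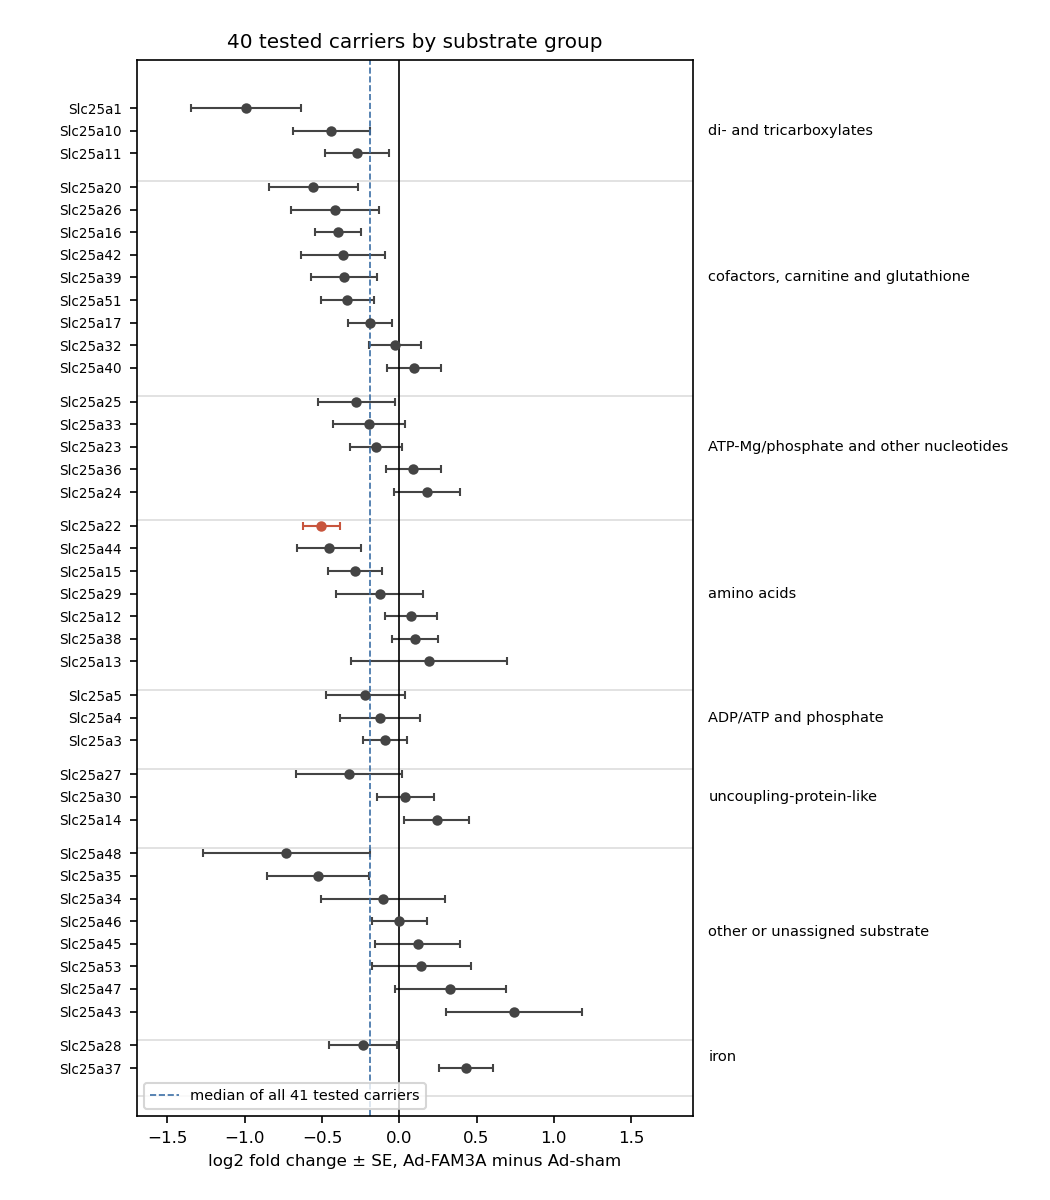
Log2 fold change ± SE of 40 tested members by substrate group, Slc25a22 in red and the median of all 41 tested members (-0.19) as a dashed line. All 3 tested di- and tricarboxylate carriers and 8 of the 9 plotted cofactor carriers lie below 0, and Slc25a43 (0.74) and Slc25a37 (0.43) lie farthest above it.

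Several members varied together over the aortas. After the group means were subtracted, the log2 CPM of Slc25a20 had a Pearson r of 0.8 or more with 9 of the other 40 members over 13 aortas. Among the closest were Slc25a5 (r = 0.95), Slc25a39 (0.95), Slc25a35 (0.93) and Slc25a44 (0.90), while the median over the 820 pairs of members was 0.11. In the opposite direction, Slc25a12 had r = -0.83 with Slc25a20 and -0.88 with Slc25a35. The points of these descriptions share libraries and their scaling.

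**Figure D4:**
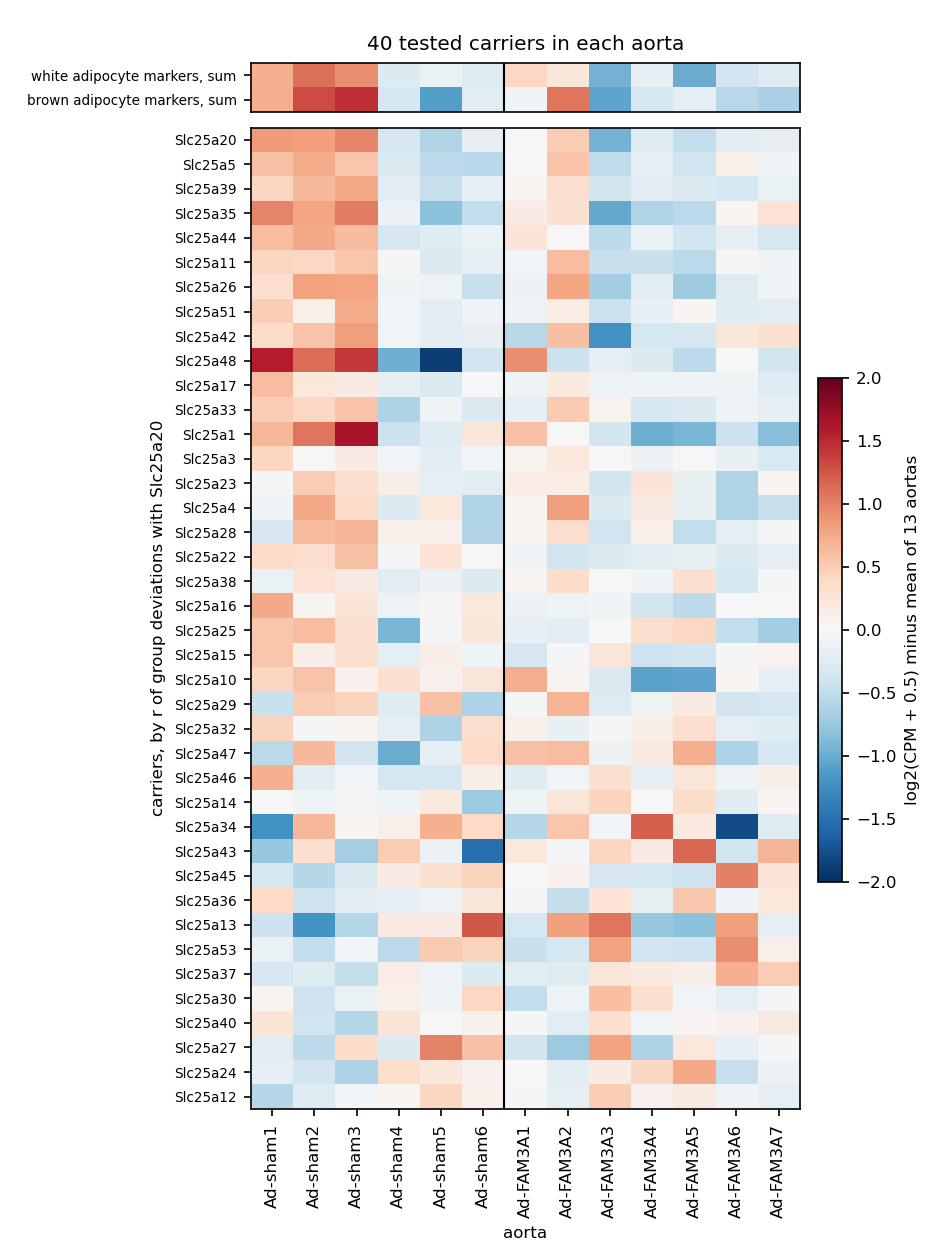
Log2(CPM + 0.5) minus the mean of 13 aortas, for the white and brown adipocyte marker sums (top) and 40 tested members, ordered by the r of their group deviations with Slc25a20. Members at the top, such as Slc25a20 and Slc25a5, are highest in Ad-sham1, Ad-sham2, Ad-sham3 and Ad-FAM3A2, as are the brown adipocyte sums, and Slc25a12 at the bottom has r = -0.83 with Slc25a20.

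The carriers Slc25a22, Slc25a20 and Slc25a4 were compared with 4 tissue marker sums, as log2 CPM over 13 aortas. The 12 relations were tested by two-sided permutation with Benjamini-Hochberg adjustment. Slc25a20 was related to the white adipocyte sum with r = 0.91 and rho = 0.80 (permutation p = 0.00012 and 0.00184, adjusted 0.00072 and 0.0110). On deviations from the group means r was 0.89 (adjusted permutation p = 0.00066), and without the 2 aortas farthest from the median it was 0.84. Within Ad-sham r was 0.94 (exact permutation p = 0.0722, adjusted 0.289) and within Ad-FAM3A 0.83 (exact permutation p = 0.0163, adjusted 0.149), so neither group passed alone after adjustment. For Slc25a22 and the white adipocyte sum, r was 0.71 and rho 0.61 over all aortas, values that include the group difference by which the gene was chosen, so no p is given for them. On deviations from the group means r was 0.60 (adjusted permutation p = 0.0701), which did not pass. It was 0.84 within Ad-sham (exact permutation p = 0.0347, adjusted 0.167) and 0.13 within Ad-FAM3A, and 0.48 over the aortas without Ad-sham2 and Ad-sham3. The difference between the groups' r was not tested.

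**Figure D5:**
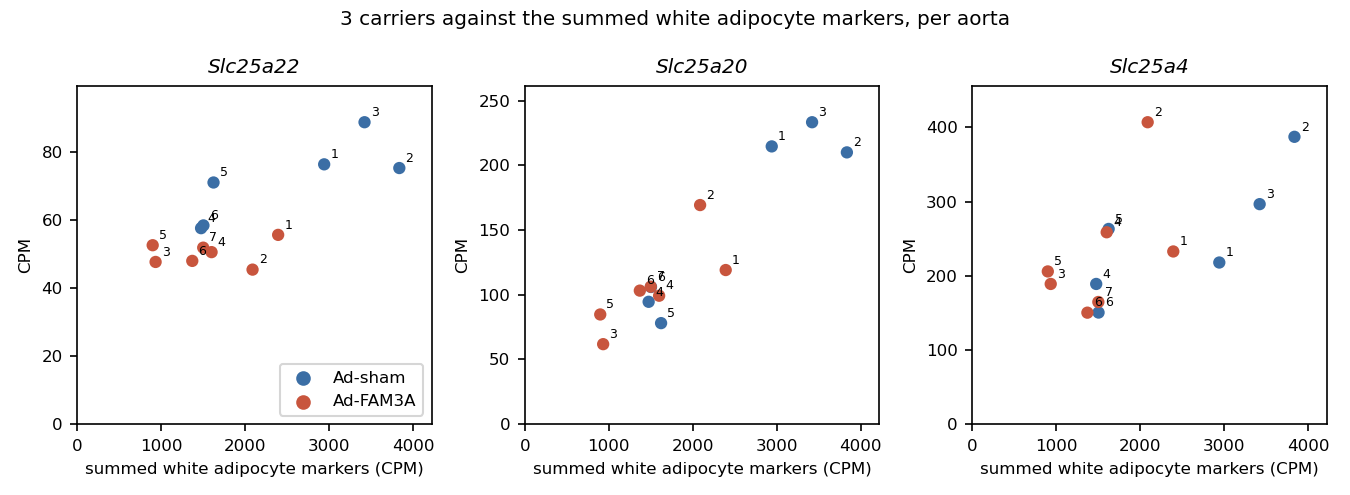
CPM of Slc25a22, Slc25a20 and Slc25a4 (y) against the summed CPM of 6 white adipocyte markers (x), 1 point per aorta with its replicate number, blue Ad-sham and red Ad-FAM3A. The r of Slc25a20 was 0.94 in Ad-sham and 0.83 in Ad-FAM3A, and that of Slc25a22 0.84 and 0.13, none of which passed after adjustment.

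The brown adipocyte sums left a gap between 4 aortas (Ad-sham1, Ad-sham2, Ad-sham3 and Ad-FAM3A2, 2425 to 4012 CPM) and the other 9 (677 to 1369 CPM), so a pooled r mostly contrasts these. Slc25a20 was at 169 to 233 CPM in the 4 and at 61.8 to 119 CPM in the 9, without overlap. Among the 9, its r with the brown adipocyte sum was 0.72, that of Slc25a22 -0.16 and that of Slc25a4 -0.10, and rho was 0.50, 0.22 and -0.067, so that of Slc25a22 had the opposite sign to its r. Over 13 aortas r was 0.94, 0.52 and 0.68, and rho was 0.82, 0.43 and 0.54. The adjusted permutation p of Slc25a20 was 0.00036 for r and 0.0110 for rho, and that of Slc25a4 was 0.0346 for r and 0.115 for rho, so its rank relation did not pass. On deviations from the group means the adjusted permutation p was 0.00012 for Slc25a20 (r = 0.93), 0.189 for Slc25a22 (r = 0.45) and 0.0454 for Slc25a4 (r = 0.68). Within the groups, r was 0.97 and 0.86 for Slc25a20, 0.68 and -0.26 for Slc25a22 and 0.55 and 0.87 for Slc25a4, Ad-sham first.

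The r of Slc25a4 with the white adipocyte sum (0.62, adjusted permutation p = 0.0581) did not pass, although its rho did (0.71, adjusted permutation p = 0.0330). For Slc25a20, r did not pass with the smooth muscle sum (-0.19, adjusted permutation p = 0.595) or the cardiac sum (0.55, adjusted permutation p = 0.102). For Slc25a22, r on deviations from the group means was -0.095 with the smooth muscle sum (adjusted permutation p = 0.792) and 0.35 with the cardiac sum (adjusted permutation p = 0.311). Slc25a4, although a muscle form, had an r of -0.074 with the cardiac sum (adjusted permutation p = 0.811) and 0.48 with the smooth muscle sum (adjusted permutation p = 0.149).

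The protein-coding genes whose group-centred levels were most like that of Slc25a22 over 13 aortas were Ccnl2 (r = 0.94), Uhrf1bp1 (0.91), Ntrk2 (0.87), Adipor2 (0.87) and Exd1 (0.86). Among the members the nearest were Slc25a44 (0.69) and Slc25a48 (0.63), and the farthest Slc25a13 (-0.69).

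Genes outside the family that work beside it were taken as lists, and their log2 fold changes too depended on Ad-sham1, Ad-sham2 and Ad-sham3. The glutamate and malate-aspartate enzymes, which act on the solutes of Slc25a22, Slc25a12, Slc25a13 and Slc25a11, had 7 lower and 6 higher of 13, with a median of -0.00056. Glutamate dehydrogenase (Glud1), whose substrate Slc25a22 brings in, had a log2 fold change of -0.00056 (SE 0.12), while glutamine synthetase (Glul) had -0.72 (SE 0.25). The carnitine shuttle, which feeds Slc25a20, had 5 lower of 5, with a median of -0.61, and Cpt2 had -0.67 (SE 0.26) and Crat -0.61 (SE 0.23). Of the other inner membrane carriers 8 were lower and 1 higher of 9, with a median of -0.45, among them the sideroflexin Sfxn5 at -1.01 (SE 0.31) and the pyruvate carrier subunits Mpc1 at -0.63 (SE 0.32) and Mpc2 at -0.73 (SE 0.37).

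Cpt2 was at 266 to 388 CPM in Ad-sham1, Ad-sham2 and Ad-sham3, at 112 to 177 CPM in the other Ad-sham aortas and at 109 to 180 CPM in Ad-FAM3A. Glul was at 1259 to 1825, 592 to 794 and 548 to 804 CPM in the same order. For both genes the other 3 Ad-sham aortas lay within the Ad-FAM3A range. Without Ad-sham1, Ad-sham2 and Ad-sham3 the log2 fold change was 0.047 (SE 0.20) for Cpt2, -0.031 (SE 0.21) for Crat, -0.036 (SE 0.19) for Glul, -0.090 (SE 0.25) for Sfxn5, 0.23 (SE 0.30) for Mpc1 and 0.35 (SE 0.33) for Mpc2. The carnitine shuttle then had 3 lower and 2 higher with a median of -0.031, the other inner membrane carriers 5 lower and 4 higher with a median of -0.034, and the glutamate list 4 lower and 9 higher with a median of 0.050.

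SLC25-type carriers named under other symbols had 4 lower and 1 higher of 5. Ucp1, the uncoupling protein of brown fat, had -1.02 (SE 0.45), Ucp3 -1.06 (SE 0.33) and Ucp2 0.32 (SE 0.31). The TIM22 import route, by which the carriers reach the membrane, had 5 lower and 2 higher of 7, with a median of -0.095. The outer membrane channels had 4 lower of 4 with a median of -0.076, and genes of mitochondrial mass and biogenesis 5 lower and 2 higher of 7 with a median of -0.32. By edgeR's quasi-likelihood test 0 genes of these 7 lists passed the call, and at an unadjusted p under 0.05 the lists held 3 lower genes of the carnitine shuttle, 3 of the other inner membrane carriers, 2 of the glutamate list and 2 under other symbols, where 2.93% of all tested genes were lower at this p, and no higher gene, where 2.98% were. Without Ad-sham1, Ad-sham2 and Ad-sham3 the 7 lists held 0 genes at an unadjusted p under 0.05 by the same test, beside 3.55% of all tested genes (5.91% with all aortas). The log2 fold change was then 0.19 (SE 0.43) for Ucp1, -0.50 (SE 0.41) for Ucp3 and -0.078 (SE 0.33) for Ucp2. The TIM22 route then had 1 lower and 6 higher, the outer membrane channels 0 lower and 4 higher, and the mass and biogenesis list 2 lower and 5 higher, where 43.3% of all tested genes were lower.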

How the data were processed

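After filtering by quality, reads were mapped by the authors with Hisat2 (GRCm38) and assigned to Ensembl genes with FeatureCounts, and the deposited counts are raw whole numbers for each of the 13 aortas. They also deposited FPKM as 1 mean per virus group, and over the tested members the group means of RPKM computed here were 0.997 to 1.02 times these values. Annotation release, strandedness and the treatment of multi-mapping reads are not given in the sources used here, so overlapping genes and close paralogs are uncertain. The labels and the study's methods name different RNA and library kits.

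Every column was matched to a sample by its label, with 0 unmatched. Counts were scaled by TMM and filtered by filterByExpr in edgeR 4.0.16 (R 4.3.3), and the virus groups were compared across all 15811 kept genes by the quasi-likelihood test, its p-values adjusted by Benjamini-Hochberg. Standard errors were taken as the size of log2 fold change over the root of F. A call needs an adjusted p under 0.05 and a change of more than 1 on the log2 scale. RPKM was computed from TMM-scaled CPM and the deposited gene length. Relations to marker sums used log2 CPM and 100000 permutations, and correlations between members used log2(CPM + 0.5). Sign flips were enumerated exactly. Coordinates are those of the deposited table and equal a GENCODE annotation of GRCm38 for 44 of the 47 members. Alternatives were other scalings, filters and tests (DESeq2 1.42.0, limma-voom 3.58.1), the replicate number as a block, marker sums as covariates and leaving out each aorta. Leaving out sets of aortas was added after seeing the data. The fit was tested on simulated data with larger changes and less spread than the tested members had, which checks the code only. The replicates are separate mice.

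Every member may be named, but single values and plots of some genes are not reported here, although they stay in all counts and medians. Values in every aorta are given for Slc25a22, and ranges over the aortas for the 6 most abundant members, the 4 largest log2 fold changes in each direction and the 8 pairs, and the other members by log2 fold change or range. Members, lists and tests were chosen with earlier results of these data known.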

Additional observations from a re-analysis of the deposited data

Results flagged for a closer look

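In groups of 6 or 7 aortas, the most extreme aorta was compared with its nearest neighbour by Dixon's ratio, on log2 CPM. Of 82 groups of tested members, 5 held an aorta past the 95% critical value, where chance gives about 4.1 (1 in 20). Slc25a17 was at 5.99 in Ad-FAM3A2, above 5.53 to 5.70 in the other Ad-FAM3A aortas. Slc25a26 was at 4.35 in the same aorta, above 2.79 to 3.45. Slc25a48 was at 3.25 in Ad-FAM3A1, above 1.66 to 2.25. Slc25a34 was at 3.40 in Ad-sham1, below 4.70 to 5.38 in the other Ad-sham aortas, and Slc25a14 at 1.53 in Ad-sham6, below 2.24 to 2.57. Ad-FAM3A2 was also the Ad-FAM3A aorta with the highest brown adipocyte marker sum, and Ad-sham1 the aorta with the highest cardiac marker sum; the part of either in these values was not tested.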

How the results depend on the processing

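The log2 fold change of Slc25a22 was -0.56 to -0.43 when 1 aorta was left out. Under the other alternatives it was -0.53 to -0.29, the last without Ad-sham1, Ad-sham2 and Ad-sham3. Its groups did not overlap and the rule chose it for being lower, so leaving out aortas could hardly turn its sign. Nothing is read from the kept sign. The number of called members was 0 under every alternative, although DESeq2 called 10 of all its genes where edgeR called 0. The number of members with an unadjusted p under 0.05 (5, beside 5.91% of all tested genes) was 2 with the adipocyte marker sum as a covariate (4.56% of all genes), 2 without Ad-sham1, Ad-sham2 and Ad-sham3 (3.55%), 2 without Ad-FAM3A6 and Ad-FAM3A7 (6.27%), 1 without the 3 aortas with cardiac transcripts (2.98%), and 2 to 9 with 1 aorta left out (3.07% to 8.60%). The number of lower members (27) became 14 without Ad-sham1, Ad-sham2 and Ad-sham3, which takes adipocyte-rich aortas from 1 group only. The median log2 fold change (-0.19) became 0.0017 with the adipocyte covariate and 0.10 without those 3 aortas, and the cause was not tested. This median was also -0.10 without Ad-sham2, -0.11 without Ad-sham3, -0.059 without the 3 aortas with cardiac transcripts, and -0.12 with DESeq2 or with no filter. The 8 differences between paralogs kept their side under each pseudocount and each aorta left out.

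Replicate numbers are shared between the groups, but same-numbered aortas did not deviate together: r ran from -0.29 to 0.49 over 15806 genes, it exceeded 0.1 in 3 of 6 pairs, and in 1 of 6 an aorta was closest to its own number. With a replicate block, Slc25a22 had a log2 fold change of -0.50, 26 members were lower, and 620 of all tested genes had an unadjusted p under 0.05 against 934 without it.

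Slc25a22 and the white adipocyte sum had r = 0.60 on deviations from the group means, which did not pass. Their r without centring (0.71) was 0.48 without the 2 farthest aortas and 0.63 to 0.81 with 1 aorta left out, values that include the group difference and are given without a call, as are those with the brown sum. For Slc25a4 and the brown adipocyte sum, r was 0.65 with library totals and 0.52 without the 2 farthest, neither passing, and 0.59 to 0.80 with 1 left out, not passing without Ad-sham2, Ad-sham3, Ad-sham4, Ad-FAM3A2, Ad-FAM3A3 or Ad-FAM3A7. With 1 left out, r was 0.31 to 0.75 for Slc25a22 and the brown sum, 0.49 to 0.67 for Slc25a4 and the white sum (passing without Ad-sham1 or Ad-FAM3A2), and 0.40 to 0.72 for Slc25a20 and the cardiac sum (passing without Ad-sham2 or Ad-FAM3A6). The r of Slc25a20 with both adipocyte sums passed under every alternative for which a p was computed over both groups. Among the 9 aortas below the gap in the brown sums, no p was computed. There r was 0.72 with either sum, and rho was 0.47 with the white sum and 0.50 with the brown sum.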
